A study of Mus musculus with 3 samples.

Results

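Cycling cells of every type were chosen by measured counts, as the barcodes that held at least 4 UMIs (unique molecular identifiers, each standing for 1 captured RNA molecule) summed over Top2a, Mki67, Cenpf, Cenpe, Aspm and Kif11. Of 18021 barcodes in 3 droplet libraries, 100 met this threshold. Sham held 16 of them, TAC 38 and TAC+ART 46. The libraries came from ventricles of C57B6 mice stored at -80 C, with 3 hearts pooled into each. Sham animals had the mock operation and vehicle. TAC animals had transverse aortic constriction, which narrows the aorta and loads the left ventricle with pressure, and vehicle. TAC+ART animals had the same constriction and artesunate, a malaria drug of the artemisinin family. With 1 library in each group there is no replicate, so no test between groups was made, and hearts, libraries and treatments cannot be told apart. Intervals are exact 95% intervals (Clopper-Pearson for shares, Poisson for sums of UMIs) and cover counting error only.

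A dividing cell copies its DNA in S phase and separates the copies in mitosis, and 2 sets of genes are switched on in turn. S phase genes include the Mcm helicase subunits, Pcna (the sliding clamp of DNA polymerase) and DNA repair factors such as Brca1. Genes of G2 and mitosis include Cdk1 and its partner cyclin B1 (Ccnb1), the kinesin motors of the spindle and the kinases of the spindle checkpoint. In the adult heart, fibroblasts, endothelial cells, mural cells and macrophages keep the capacity to divide, whereas cardiomyocytes rarely do. The 6 genes of the threshold act late in the cycle. Top2a untangles DNA strands, Mki67 coats mitotic chromosomes, Cenpf and Cenpe sit at kinetochores, Aspm focuses the spindle poles, and Kif11 is the motor that pushes the poles apart.

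Genes of the late cycle are known to be held off in resting cells through an element called CHR (cell cycle genes homology region) and to be driven by the factor NF-Y at CCAAT boxes, while S phase genes carry E2F sites. The 250 bases before the annotated start were read from the RefSeq promoter table (build GRCm38.p6) and searched on both strands for CCAAT, for CHR (TTTGAA or TTCGAA, the latter the same on both strands) and for E2F sites (TTTGGCGC, TTTCCCGC, TTTGCCGC or TTTCGCGC). Top2a, Mki67 and Kif11 are shown because they are the genes of the threshold with both a CCAAT box and a CHR match, and Cdk1 because its window holds all 3 kinds. Matches are in capitals on the gene's own strand, so ATTGG marks a CCAAT box and TTCAAA a CHR on the opposite strand. The windows are chr11:99024190-99024439 (minus strand) for Top2a, chr7:135716380-135716629 (minus) for Mki67, chr19:37376132-37376381 (plus) for Kif11 and chr10:69352913-69353162 (minus) for Cdk1.
Top2a: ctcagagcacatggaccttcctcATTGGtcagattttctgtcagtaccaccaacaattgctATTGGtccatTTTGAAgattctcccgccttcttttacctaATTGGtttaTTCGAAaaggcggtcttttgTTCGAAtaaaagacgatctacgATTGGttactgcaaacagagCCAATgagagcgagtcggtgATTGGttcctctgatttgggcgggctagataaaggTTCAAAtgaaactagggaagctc
Mki67: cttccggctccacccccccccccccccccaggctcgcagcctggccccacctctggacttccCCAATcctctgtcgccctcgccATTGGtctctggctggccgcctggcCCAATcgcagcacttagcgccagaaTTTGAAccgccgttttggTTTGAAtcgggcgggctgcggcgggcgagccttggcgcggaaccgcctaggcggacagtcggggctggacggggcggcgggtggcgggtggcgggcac
Kif11: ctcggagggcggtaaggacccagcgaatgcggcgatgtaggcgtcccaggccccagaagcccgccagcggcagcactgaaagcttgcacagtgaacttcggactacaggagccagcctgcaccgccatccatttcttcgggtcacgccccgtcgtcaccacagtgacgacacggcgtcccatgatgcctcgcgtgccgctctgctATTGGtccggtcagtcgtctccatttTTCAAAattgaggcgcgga
Cdk1: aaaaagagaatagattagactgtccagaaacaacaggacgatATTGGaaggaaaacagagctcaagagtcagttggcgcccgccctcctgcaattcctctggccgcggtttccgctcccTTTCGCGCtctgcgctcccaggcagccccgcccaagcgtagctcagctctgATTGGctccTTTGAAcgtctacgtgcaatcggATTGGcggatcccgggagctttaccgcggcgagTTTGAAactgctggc
The Top2a window held 6 CCAAT boxes and 4 CHR matches, Mki67 held 3 and 2, Kif11 held 1 and 1, and Cdk1 held 3 and 2 beside 1 E2F site. All 6 genes of the threshold had a CCAAT box (2 in Cenpf, 1 in Cenpe, 3 in Aspm), and Cenpf, Cenpe and Aspm had no CHR match in this window. Among 60 genes of a list of 72 mitosis genes with a window in the table, 39 (65%) held CCAAT, 24 (40%) held CHR and 19 (31.7%) held both. Of 52 windows for a list of 65 S phase genes, 28 (53.8%) held CCAAT, 7 (13.5%) held CHR, 5 held both and 11 (21.2%) held an E2F site. Over all 27025 promoters of the same length, 34.5% held CCAAT, 17.4% CHR, 6.21% both and 1.91% an E2F site, and E2F sites were found in 6 of the 60 mitosis windows and in none of the 6. A match is a description of the letters, and no match says only that they are not in this window.

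The threshold fixed the levels of the 6 genes, so these are a description. Top2a had UMIs in 82 of the 100 barcodes, Mki67 in 79, Kif11 in 62, Cenpf in 61, Cenpe in 56 and Aspm in 42. Between 43.5% (Cenpf) and 62.2% (Top2a) of all UMIs of each gene lay in these 100 barcodes. All 6 genes were seen together in 17 barcodes (1 in Sham, 8 with TAC and 8 with TAC+ART), and 6 barcodes passed on 1 gene alone (3, 1 and 2). The summed count had a median of 5.5 UMIs in Sham (highest 27), 10 in TAC (highest 73) and 11.5 in TAC+ART (highest 47). Sums of 10 or more made up 4 of 16 cycling barcodes in Sham, 23 of 38 with TAC and 31 of 46 with TAC+ART. Just inside the threshold, 17 barcodes held exactly 4 UMIs (6 in Sham, 2 in TAC, 9 in TAC+ART), and just outside it 35 held exactly 3 (7, 10 and 18). Of all barcodes, 93.9% held none.

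**Figure D1:**
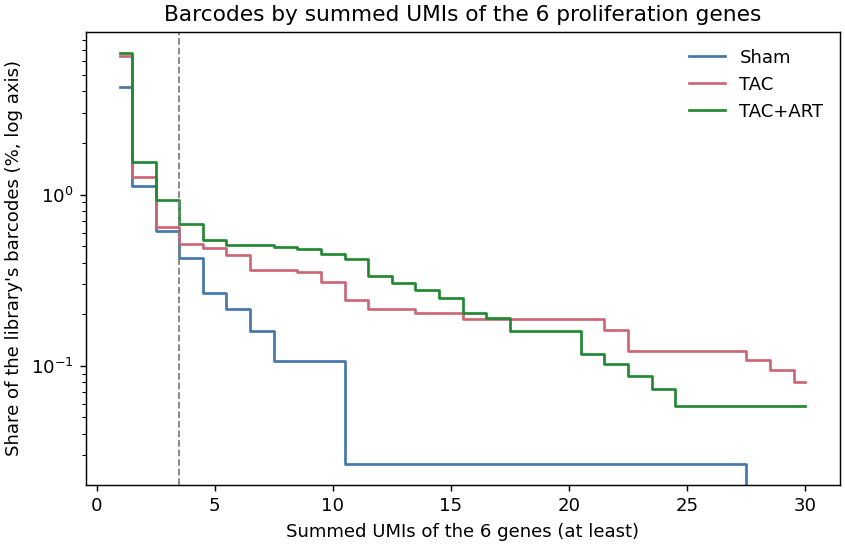
Share of each library's barcodes (vertical axis, %, log scale) that held at least the given number of UMIs summed over the 6 genes (horizontal axis), with the threshold of 4 UMIs as a dashed line. Sham falls below both TAC libraries beyond the threshold, and its highest sum is 27, against 73 with TAC and 47 with TAC+ART.

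Cycling barcodes were 0.426% of Sham (16 of 3752, 95% interval 0.244 to 0.692%), 0.513% of TAC (38 of 7413, 0.363 to 0.703%) and 0.671% of TAC+ART (46 of 6856, 0.492 to 0.894%). These intervals overlap. With at least 10 UMIs of the 6 genes the shares were 0.107% in Sham (4 barcodes, 0.0291 to 0.273%), 0.310% with TAC (23, 0.197 to 0.465%) and 0.452% with TAC+ART (31, 0.307 to 0.641%). The Sham and TAC+ART intervals then lie apart. This cut reuses the genes of the threshold and was chosen after the data were seen. Its intervals cover counting within 1 library per group, so they are no test between groups. Library depth was similar, with a median of 4310 UMIs per barcode in Sham, 4811 with TAC and 4524.5 with TAC+ART. Thinned to 2000 UMIs per barcode with at least 2 UMIs of the 6 genes, which leaves out 225, 508 and 421 shallower barcodes, the shares were 0.425%, 0.565% and 0.699%. With at most 8000 UMIs per barcode they were 0.412% (0.226 to 0.691%), 0.368% (0.236 to 0.548%) and 0.567% (0.395 to 0.787%), so TAC then lay below Sham, within overlapping intervals. A count threshold favours deep barcodes: cycling barcodes had a median of 5597.5, 7012.5 and 6264 UMIs, against 4308.5, 4806 and 4518 in the others. The files hold few barcodes of 10000 UMIs or more (9 in Sham, 3 in TAC, 9 in TAC+ART) against 348, 896 and 671 between 8000 and 10000, and 14 of the 38 TAC and 11 of the 46 TAC+ART cycling barcodes lie in that upper range. Scrublet scores marked 0, 2 and 1 cycling barcodes as possible doublets. Barcode letters recur between libraries in 20 (Sham and TAC), 20 (Sham and TAC+ART) and 27 (TAC and TAC+ART) cases, and cycling barcodes among them number 1, 0 and 1 in Sham, TAC and TAC+ART.

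Other genes of the cycle gave a readout that the threshold did not use. The list of 72 mitosis genes, which holds none of the 6, had a median of 18.5 UMIs per cycling barcode in Sham, 44 with TAC and 57.5 with TAC+ART, against 2 in the other barcodes of each library. The list of 65 S phase genes had medians of 16, 11.5 and 44 UMIs, against 3 in the others. In counts per 1000000 UMIs of the same barcodes (CPM), the mitosis list summed to 4414 in Sham, 9322 with TAC and 10327 with TAC+ART cycling barcodes, against 461, 493 and 478 in the others. S phase list sums were 4350, 4928 and 7479 CPM, against 847, 794 and 804. At least 10 mitosis list UMIs were present in 9 of 16, 33 of 38 and 44 of 46 cycling barcodes, while 52, 95 and 65 of the other barcodes reached that level. Requiring both measures left 0.240% of Sham (0.110 to 0.455%), 0.445% of TAC (0.307 to 0.625%) and 0.642% of TAC+ART (0.467 to 0.861%), where the Sham and TAC+ART intervals do not meet. This requirement was also chosen after the data were seen, and its intervals cover counting error only.

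The mitosis list tracked the summed count of the 6 genes. Its median was 2 UMIs in the 16923 barcodes with a sum of 0 and 2 in the 856 with 1, then 4 with 2 and 5 in the 35 barcodes with 3. It was 13.5 UMIs at sums of 4 to 5 (24 barcodes), 24.5 at 6 to 9 (18 barcodes) and 67.5 at 10 or more (58 barcodes). In CPM, the list stood at 470 with a sum of 0, 1912 with 3, 2444 with 4 to 5, 4937 with 6 to 9 and 12851 with 10 or more. Barcodes just under the threshold thus had a raised mitosis sum, and S phase sums went from 785 CPM at 0 to 3115 at 3 and 7014 at 10 or more. These genes share barcodes and depth with the 6, so the steps are a description.

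The balance of the lists differed among barcodes. Mitosis UMIs outnumbered S phase UMIs in 60 cycling barcodes (7 in Sham, 26 in TAC, 27 in TAC+ART), the reverse held in 39 (9, 12 and 18), and 1 had equal numbers. This split uses raw counts, and the other barcodes already held a median of 3 S phase against 2 mitosis UMIs. Some of the 39 rest on few UMIs, such as a TAC barcode with 2 against 1, so an excess alone does not place a barcode in S phase. In sums, 0.986 S phase UMIs were counted per mitosis UMI in Sham, 0.529 with TAC and 0.724 with TAC+ART. The highest mitosis count was 227 UMIs in a TAC barcode of the endothelial class that held 11 S phase UMIs. At the other end, a TAC+ART endothelial barcode held 123 S phase and 37 mitosis UMIs. Among the genes of the threshold, Top2a was seen in 82.1% of barcodes with S phase in excess and in 81.7% of those with mitosis in excess. Mki67 was seen in 71.8% and 85.0%, Kif11 in 46.2% and 71.7%, Cenpe in 33.3% and 71.7%, Cenpf in 30.8% and 81.7%, and Aspm in 15.4% and 60%. Top2a and Mki67 made up most of what placed barcodes with S phase in excess past the threshold (45.4% and 28.4% of the UMIs of the 6 genes). Cenpf, Cenpe and Aspm were seen more in those with mitosis in excess, where the median summed count was 12.5 against 6.

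**Figure D2:**
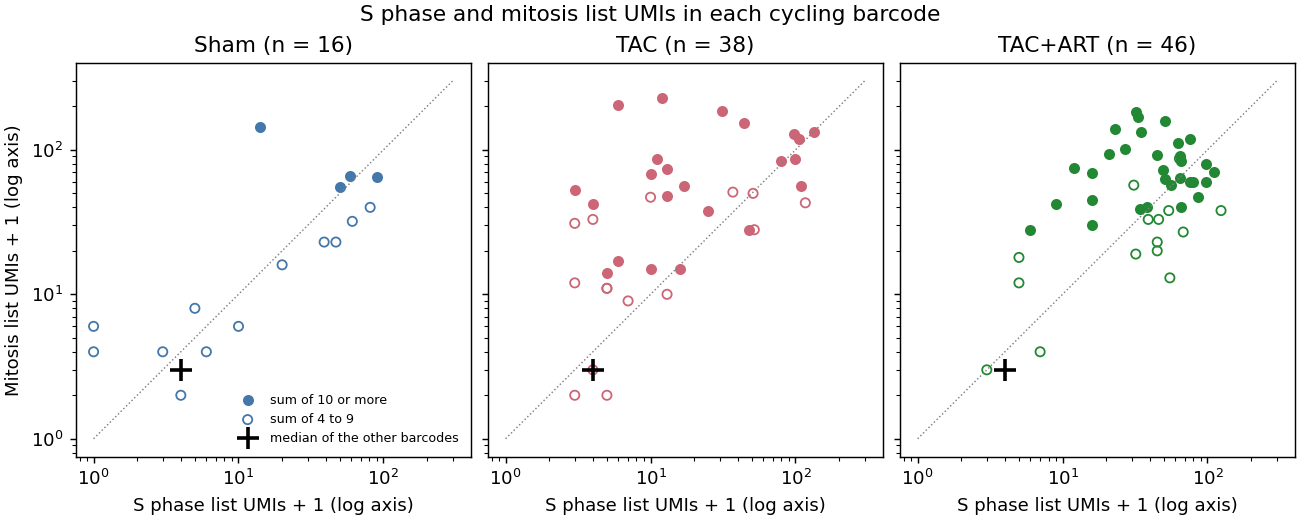
UMIs of the 65-gene S phase list (horizontal axis) and of the 72-gene mitosis list (vertical axis), each plus 1 on log axes, in every cycling barcode of the 3 libraries, with filled points for a 6-gene sum of 10 or more, open points for 4 to 9 and a cross for the median of the other barcodes. Points above the dotted line of equal counts number 7 in Sham, 26 with TAC and 27 with TAC+ART.

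Lineage was read from pairs of genes. A barcode was placed in a class when the summed UMIs of Pdgfra and Dcn (fibroblast), Ptprb and Flt1 (endothelial), Csf1r and Mrc1 (macrophage) or Abcc9 and Rgs5 (mural) reached 3 and were at least 2 times each other sum. It was called mixed where no sum led in this way, and none where no sum reached 3. The 100 cycling barcodes held 28 fibroblast, 22 endothelial, 20 macrophage, 6 mural, 18 mixed and 6 none. Fibroblast barcodes numbered 0 in Sham, 14 with TAC and 14 with TAC+ART. Endothelial barcodes numbered 7, 9 and 6, macrophage barcodes 1, 9 and 10, and mural barcodes 3, 1 and 2. Mixed barcodes were 3, 4 and 11, and those of no class 2, 1 and 3. Longer lists of 8 to 10 markers gave the same class for 66 of the 76 barcodes with a lineage, including all 22 endothelial and 19 of 20 macrophage barcodes, but 21 of 28 fibroblast barcodes.

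UMIs of the fibroblast pair were also found in barcodes of other classes, which limits the fibroblast class. Dcn, a small proteoglycan of the matrix, is abundant in cardiac fibroblasts. In barcodes of the endothelial class that were not cycling, the Pdgfra and Dcn sum had a median of 1 UMI in Sham, 3 with TAC and 3 with TAC+ART, and reached 3 in 15.5%, 68.3% and 66.7% of them. It reached 10 in 0% in Sham, 1.55% with TAC and 1.51% with TAC+ART. Of the 14 TAC fibroblast barcodes, 8 had pair sums of 3 to 9, as did 6 of the 14 in TAC+ART. Several fibroblast-class barcodes carried markers of other types. In TAC, 3 barcodes of the fibroblast class held 133, 76 and 46 UMIs of a 6-gene T or NK cell list (Skap1, Themis, Cd3e, Cd3g, Cd247 and Nkg7), and another 2 held 88 and 25 UMIs of a 4-gene mast cell list (Kit, Cpa3, Mcpt4 and Fcer1a). In TAC+ART, 1 held 23 UMIs of the T or NK list. By the longer lists, 2 of the TAC and 5 of the TAC+ART fibroblast-class barcodes were mixed. In each of those 5 the longer endothelial list held more UMIs (12 to 32) than the longer fibroblast list (11 to 20). The barcode among them with 25 against 17 UMIs had a fibroblast pair sum of 10. A stricter class took a pair sum of at least 10 and fewer than 10 UMIs of the T or NK list and of the mast cell list. The TAC+ART barcode with 25 against 17 UMIs stays in this class. In it, 0 of 826 fibroblast barcodes were cycling in Sham (exact interval up to 0.446%), 5 of 1588 with TAC and 8 of 1828 with TAC+ART. That is 0.315% (0.102 to 0.733%) in TAC and 0.438% (0.189 to 0.860%) in TAC+ART.

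By the pairs alone, 0 of 1212 barcodes of the fibroblast class were cycling in Sham, where the exact interval reaches 0.304%. The cycling share was 0.530% of 2643 in TAC (0.290 to 0.887%) and 0.543% of 2577 in TAC+ART (0.297 to 0.910%). The upper bound in Sham lies above the lower bounds in both TAC libraries. This holds at this pair sum and at a pair sum of 10. The TAC and TAC+ART shares lie within each other's intervals at both settings. The Sham count of 0 depended on the setting. With at least 3 UMIs of the 6 genes, 2 of the 1212 were cycling. Thinned to 2000 UMIs with at least 2 UMIs of the 6 genes, 2 were cycling as well. By the longer lists it was 1 of 1276 (0.0784%, 0.00198 to 0.436%). It stayed 0 with at least 6 and with at least 10 UMIs of the 6 genes.

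In the macrophage class, which takes its name here from the growth factor receptor Csf1r and the mannose receptor Mrc1, cycling barcodes were 0.339% of 295 in Sham (1 barcode, 0.00858 to 1.87%), 0.974% of 924 in TAC (0.446 to 1.84%) and 1.30% of 767 in TAC+ART (0.627 to 2.38%). Over the 3 libraries the share was 1.01% (0.616 to 1.55%), against 0.477% in the endothelial class (0.299 to 0.721%), 0.435% in fibroblast (0.289 to 0.629%) and 0.435% in mural (0.160 to 0.945%). All 4 intervals overlap. The endothelial class had 0.618% of 1133 in Sham (0.249 to 1.27%), 0.477% of 1885 in TAC (0.219 to 0.904%) and 0.377% of 1593 in TAC+ART (0.138 to 0.818%). In TAC+ART, 6 of the 11 mixed cycling barcodes were endothelial by the longer lists. By those lists the endothelial shares were 0.688% of 1309 in Sham (9 barcodes, 0.315 to 1.30%), 0.434% of 2075 in TAC (9, 0.199 to 0.822%) and 0.748% of 1605 in TAC+ART (12, 0.387 to 1.30%). TAC+ART was thus the lowest of the 3 by the pairs and the highest by the longer lists, with intervals that overlap in both. Mural shares were 0.615% of 488, 0.254% of 393 and 0.402% of 498, on 3, 1 and 2 barcodes. The mural class of Sham rests on barcodes whose markers go against it, since 2 of the 3 held 511 and 1820 UMIs of a list of 10 cardiomyocyte genes. Without barcodes of 200 or more such UMIs the shares were 0.243% of 411, 0.264% of 379 and 0.424% of 472, and 0.317% over the 3 libraries (4 barcodes, 0.0864 to 0.810%).

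**Figure D3:**
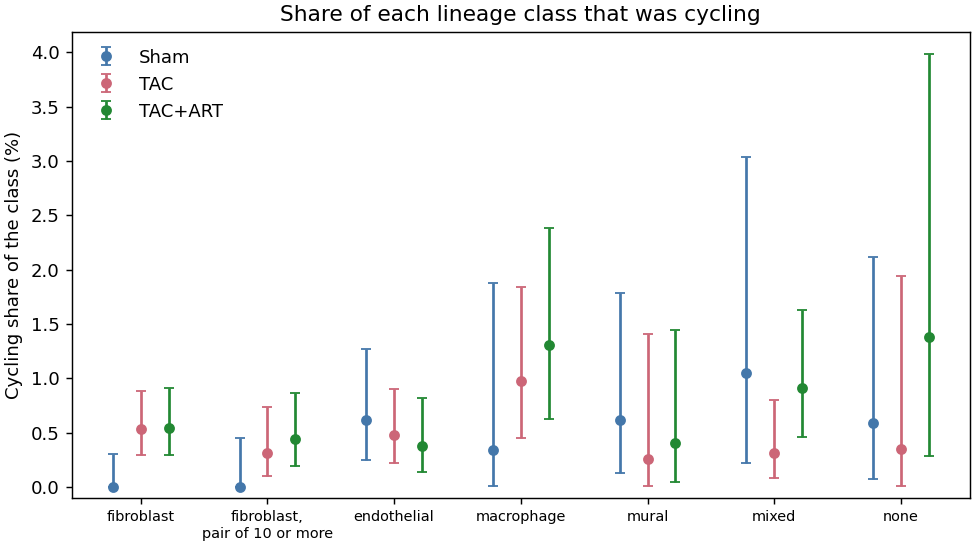
Share of the barcodes of each lineage class (vertical axis, %) that were cycling in Sham, TAC and TAC+ART, with exact 95% Clopper-Pearson intervals that cover counting error only. The fibroblast class has 0 cycling barcodes in Sham at either pair sum, and the macrophage class has the highest points of the 4 lineages in both TAC libraries (0.974% and 1.30%).

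Markers of further cell types were found in some cycling barcodes. The T or NK list reached 10 UMIs in 6 of the 100. They were 1 of 12 such barcodes in Sham, 4 of 69 with TAC (5.80%, 1.60 to 14.2%) and 1 of 28 with TAC+ART. In the 4 TAC barcodes the list was led by Skap1 (144 UMIs, a signalling adaptor of T cells), Themis (105, a T cell development factor) and Cd247 (41, the zeta chain of the T cell receptor), with 3 of Cd3e, 4 of Cd3g and none of Nkg7. All 4 held 27 to 85 mitosis list UMIs. Mast cell markers reached 10 UMIs in 2 of 3 such barcodes in TAC, with 76 UMIs of Cpa3 (a mast cell protease) and 31 of Kit (the stem cell factor receptor), and with 118 and 50 mitosis list UMIs. The one with 50 was marked as a possible doublet. A 6-gene lymphatic endothelial list reached 20 UMIs in 3 cycling barcodes: 1 in Sham, led by Prox1 (12 UMIs, the master regulator of lymphatic fate), and 2 in TAC, led by the chemokine Ccl21a (58 UMIs). The pairs placed those barcodes in the classes none, none and endothelial. The T or NK list summed to 137 CPM in Sham, 1259 with TAC and 92.8 with TAC+ART cycling barcodes, against 37.0, 54.1 and 37.6 in the others.

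Cardiomyocyte RNA marked a group of Sham barcodes. A list of 10 cardiomyocyte genes, among them Ttn (titin), Ryr2 (the calcium release channel) and Myh6 (a cardiac myosin), reached 298, 492, 511 and 1820 UMIs in 4 of the 16 cycling barcodes of Sham. No cycling barcode of TAC or TAC+ART reached 200, where the highest were 107 and 104. The first of them met the threshold with 3 UMIs of Mki67 and 1 of Cenpe, and the other 3 with 4 UMIs of Cenpf alone. In the same order they held 1, 3, 3 and 15 mitosis list UMIs, and none held Top2a. Of these 4, 2 were mixed and 2 mural by the pairs. Because Cenpf and Top2a belong to the threshold, both were also read in barcodes that were not cycling, as a description. Among those with at least 200 cardiomyocyte UMIs, Cenpf stood at 8.97 CPM in Sham (19 UMIs in 277 barcodes, 5.40 to 14.0), against 2.65 in the rest (1.90 to 3.59). It stood at 0.709 against 2.75 in TAC, on 1 UMI, and at 7.28 against 3.54 in TAC+ART, on 17. Top2a had 0, 0 and 1 UMIs in these barcodes, against 2.26, 3.25 and 3.51 CPM in the rest. Without barcodes of this kind, cycling shares were 0.346% in Sham (12 barcodes, 0.179 to 0.603%), 0.528% in TAC and 0.705% in TAC+ART.

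Across the transcriptome, UMIs summed over cycling barcodes were set against the sum expected from the other barcodes of the same library, weighted to the same makeup of lineage classes. A gene was counted as higher or lower when it was past 2-fold in the same direction in each of the 3 libraries. Of 6537 genes with at least 20 UMIs in the cycling barcodes, 271 (4.15%) were higher and 15 (0.229%) were lower, and the median log2 ratio was -0.01 in Sham, 0.07 with TAC and 0.07 with TAC+ART. That minimum lets in rare genes where they are high, so the lists are given over all their measured members. Without it, 343 of 17793 genes (1.93%) were higher and 131 (0.736%) were lower. Mitosis genes were higher in 65 of 72, with a median log2 ratio of 4.18, and cytokinesis genes in 10 of 10, with a median of 4.76. S phase genes were higher in 45 of 65, with a median of 2.49. Regulators of the cycle were higher in 10 of 21 (median 1.62), inhibitors in 3 of 16 (median 0.38), and none of the members of these 5 lists was lower. The median over every gene was -0.11.

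Neil3, a DNA glycosylase of S and G2 phase, had the highest median ratio of the mitosis list. It had 23 UMIs in Sham, 66 with TAC and 123 with TAC+ART, in 6, 17 and 36 of the cycling barcodes. Its level was 210, 275 and 439 CPM against 0.892, 1.23 and 1.75 expected, or log2 ratios of 5.30, 6.39 and 6.96. Kif15, a spindle motor that shares the work of Kif11, had log2 ratios of 3.88, 6.29 and 6.24 on 10, 64 and 90 UMIs. Cdk1, the kinase that starts mitosis, had 5, 19 and 25 UMIs and log2 ratios of 3.28, 4.57 and 5.02. Ccnb1, its cyclin, had 1, 13 and 12 UMIs, so its Sham ratio of 1.56 rests on 1 UMI, beside 4.15 and 4.23. At the low end, the condensin subunit Ncapd3 had ratios of 1.39, 1.96 and 2.91. Ckap5, a microtubule polymerase also used outside mitosis, had 0.83, 1.29 and 1.55 and was not counted as higher.

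Cytokinesis genes, which pinch the daughter cells apart, were led by Prc1, the bundler of the central spindle, with 13, 69 and 95 UMIs and log2 ratios of 3.87, 6.06 and 6.10. Ect2, which is needed for the cleavage furrow to form, had 3.55, 5.41 and 5.48. Anln (anillin, a scaffold of the contractile ring) had 6, 60 and 83 UMIs and log2 ratios of 2.86, 5.14 and 4.61. Aurkb, the kinase of the chromosome passenger complex, had 2.13, 3.92 and 4.61 on 2, 11 and 20 UMIs. Citron kinase (Cit) had 2.52, 3.81 and 3.9. For each of these 5 genes the Sham ratio was the lowest of the 3.

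In the S phase list the leading genes were Brca1, with 11, 34 and 58 UMIs and log2 ratios of 3.97, 4.71 and 5.50, and Clspn (claspin, a checkpoint mediator at replication forks), with 3.64, 4.75 and 5.19. Pcna had 8, 17 and 52 UMIs, in 5, 11 and 24 barcodes, with log2 ratios of 1.80, 1.62 and 3.11. Mcm3 had 2.53, 1.98 and 2.70 on 6, 9 and 16 UMIs. The clamp loader subunit Rfc1 had 1.02, 0.96 and 1.72, and Casp8ap2, a factor for histone gene transcription, had -0.01, 0.72 and 1.62. By library, the median of the S phase list was 1.82 in Sham, 2.33 with TAC and 3.19 with TAC+ART, and that of the mitosis list was 2.75, 4.27 and 4.47. The lower Sham values go with the 4 cardiomyocyte-rich barcodes and with smaller 6-gene sums there. They also go with smaller expected sums, where the counts added to both sums shrink a high ratio more. Brca1 had 0.235 UMIs expected in Sham, 0.817 with TAC and 0.793 with TAC+ART, and Cdk1 had 0.066, 0.321 and 0.284. The part of each was not tested on these medians by library.

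Among regulators, Foxm1, the activator of mitosis genes, had log2 ratios of 2.52, 4.33 and 4.68 on 3, 14 and 18 UMIs, and E2f2, an activator of S phase genes, had 3.83, 4.15 and 4.61. The D cyclins, which link growth signals to cycle entry, were not counted as higher or lower. Ccnd1 had 0.60, 0.31 and 0.11. Ccnd2 had -1.81, -0.99 and -1.61 on 4, 10 and 8 UMIs, and Ccnd3 had -1.32, -0.20 and -1.30 on 12, 150 and 71. Inhibitors counted as higher included Cdkn2c, the p18 inhibitor of the D cyclin kinases, with 2.12, 3.29 and 2.88, and Pkmyt1, a kinase that holds Cdk1 inactive, with 2.44, 2.29 and 3.48. Cdkn1a (p21), induced by p53, had 1.98, 0.21 and 0.09 on 6, 11 and 6 UMIs, and the anti-proliferative Btg2 and Btg1 had 0.15, -0.40 and -1.38, and -1.05, 0.55 and -0.95. Of the chromatin list, 6 of 15 symbols were in the files as written, and all 6 were higher. With older histone symbols matched to newer ones, 14 members were measured and 9 were higher, with a median of 2.08. Hmgb2 (a DNA-bending protein) had 2.60, 3.33 and 3.33, the histone chaperone Asf1b had 3.09, 3.98 and 3.69, Hmgn2 had 1.26, 2.35 and 1.35, and Hmgb1 had 1.10, 1.32 and 1.33.

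**Figure D4:**
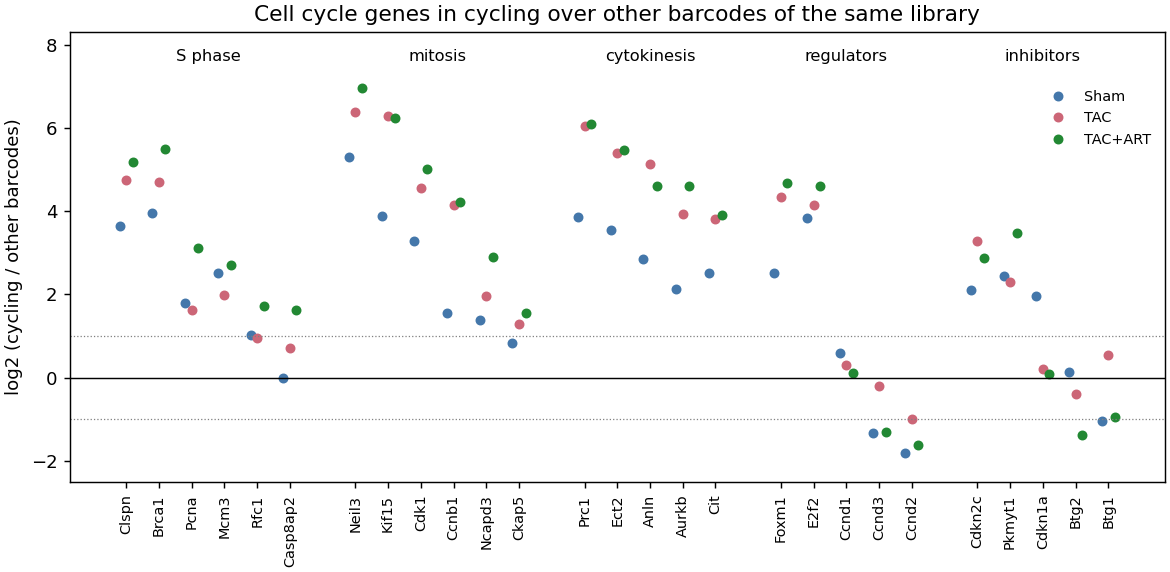
Log2 ratio of UMIs in cycling barcodes over those expected from the other barcodes of the same library (vertical axis), 1 point per library, for 27 genes of 5 cell cycle lists, with dotted lines at 2-fold. Neil3, Kif15 and Prc1 lie highest in both TAC libraries, from 6.06 to 6.96, and the D cyclins Ccnd2 and Ccnd3 lie below 0 in all 3.

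Outside the lists, the gene with the highest lowest ratio was Lockd, a noncoding RNA transcribed next to Cdkn1b, with 22, 151 and 136 UMIs and log2 ratios of 4.41, 6.18 and 5.54. Nav2, a neuron navigator that binds microtubules, was the most abundant of the 10 named by this measure. It had 128 UMIs in Sham, 252 with TAC and 296 with TAC+ART, in 11, 23 and 37 barcodes, or 1170, 1051 and 1057 CPM against 107, 70.4 and 61.9 expected. Its log2 ratios were 3.40, 3.86 and 4.06. Zwilch, Cenph and Knstrn, which work at kinetochores, had lowest ratios of 3.55, 3.28 and 3.15. Cks2, a subunit of Cdk1, had 3.20, and Cdkn3, a phosphatase of the cyclin kinases, had 3.26. Rmi2 and Fignl1, both of DNA repair, had 3.33 and 3.24, and Efcab11 had 3.58.

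Of the 15 genes counted as lower, the 5 whose highest ratio was lowest were Rasgrf2, Vwf, Fmo2, Slfn5 and 9530026P05Rik. Rasgrf2, a Ras exchange factor, had log2 ratios of -2.28, -2.08 and -1.57 on 5, 7 and 13 UMIs. Vwf, the von Willebrand factor of endothelium, had -1.62, -2.0 and -2.29 on 6, 9 and 9 UMIs. Fmo2, a flavin monooxygenase, had -1.70, -1.71 and -1.99, and 9530026P05Rik had -1.84, -1.55 and -2.67. Slfn5 had -3.41, -1.61 and -1.77 on 2, 16 and 16 UMIs, and its Sham UMIs lay in 1 barcode. An endocardial list (Npr3, Cdh11, Nrg1 and Tmem108) stood at 210, 79.2 and 60.7 CPM in cycling barcodes against 588, 882 and 569 in the others. These sums are over barcodes of all classes, without weights, and 1 barcode held 17 of the 23 Sham UMIs. Weights by the pairs do not separate endocardial from other endothelial barcodes, and the part of the endocardial difference in Vwf was not tested.

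Lineage states were read within each class from lists of marker genes. In the endothelial class, a 15-gene angiogenic list summed to 2195 CPM in the 7 Sham cycling barcodes (1740 to 2732) against 1768 in the other endothelial barcodes, to 5254 (4726 to 5825) against 3008 in 9 TAC barcodes, and to 4238 (3649 to 4894) against 1948 in 6 TAC+ART barcodes. Barcode by barcode, 6 of 7, 8 of 9 and 6 of 6 lay above the median of the others. Most of it was Col4a1 and Col4a2, the chains of basement membrane collagen IV, and Nrp2, a coreceptor for VEGF. Col4a1 stood at 357 against 314 CPM in Sham, 2023 against 903 with TAC and 893 against 438 with TAC+ART. Col4a2 stood at 384 against 237, 1441 against 670 and 1122 against 341. Nrp2 stood at 823 against 602 in Sham, 844 against 688 with TAC and 1397 against 561 with TAC+ART. Mcam, Angpt2 and Apln also stood higher in all 3 libraries, on few UMIs. Mcam had 4, 11 and 6 UMIs in the cycling endothelial barcodes, Angpt2 had 1, 3 and 6, and Apln had 3, 1 and 1. The remaining members did not share this direction in every library. Aplnr, the apelin receptor, stood at 165 against 99.3, 87.3 against 101 and 45.8 against 143, on 6, 6 and 2 UMIs. Pdgfb, a growth factor that recruits mural cells, stood at 110 against 293, 247 against 270 and 229 against 224. Plvap had 3, 2 and 0 UMIs, and Esm1, Cxcr4 and Kcne3 had none in any cycling endothelial barcode.

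In the fibroblast class with pair sums of 10 or more, an 18-gene activated list summed to 12182 CPM in the 5 TAC cycling barcodes against 4622 in the other fibroblast barcodes, and to 3736 against 2174 in the 8 of TAC+ART. All 5 TAC and 7 of 8 TAC+ART barcodes lay above the median of the others. Single barcodes differed widely, with 19, 25, 35, 75 and 149 list UMIs with TAC and 7 to 55 with TAC+ART. The 8 of TAC+ART include the barcode with 25 UMIs of the longer endothelial list against 17 of the fibroblast list. Without the barcode of 149 the TAC sum was 7260 CPM (6159 to 8502). Col3a1, the type III collagen of scar and loose matrix, stood at 5066 CPM against 1422 with TAC and at 1398 against 862 with TAC+ART. Postn (periostin, made by activated fibroblasts) stood at 3096 against 988 and at 799 against 378, and was seen in 5 of 5 and 7 of 8 barcodes. Fn1 (fibronectin) stood at 482 against 88.0 and at 320 against 68.0, on 12 and 16 UMIs. With TAC the median barcode held 15 of the 126 Col3a1 UMIs and 6 of the 77 Postn UMIs. Single genes were not read without the barcode of 149. Not every member shared this direction. Cilp stood at 362 against 438 and at 140 against 151, on 9 and 7 UMIs. Runx1 stood at 80.4 against 93.7 and at 0 against 31.6, and Cthrc1 had 0 UMIs in both. A 15-gene resting list summed to 6433 against 6792 with TAC and to 6193 against 10592 with TAC+ART, where none of the 8 lay above the median of the others. Its most counted members there were Gsn (gelsolin, which severs actin filaments), at 3077 against 3946 CPM, and the transporter Abca8a, at 1458 against 3213. With TAC, Gsn held 125 of the 160 list UMIs and stood higher, at 5026 against 3442 CPM. Abca8a stood lower there, at 603 against 1312, and Abca6 and C7 stood at 0 against 241 and 460. Over the whole class, T and mast barcodes included, the activated list stood at 7155 against 4125 with TAC and 2944 against 1979 with TAC+ART. The 72 UMIs of Runx1 in TAC fell to 2 without those barcodes and pair sums under 10, so most lay outside barcodes with a clear fibroblast pair.

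In the macrophage class, a 13-gene list of resident macrophages summed to 13553 CPM in the 1 Sham barcode against 18680, to 10432 (9718 to 11184) against 13573 in 9 TAC barcodes and to 14860 (13913 to 15855) against 19133 in 10 TAC+ART barcodes. The Sham barcode was mixed by the longer lists, with 69 UMIs of the macrophage list and 44 of the fibroblast list. In single barcodes, 0 of 1, 3 of 9 and 3 of 10 lay above the median of the others. F13a1, the coagulation factor chain of resident cardiac macrophages, stood at 3947 against 6795, 3578 against 5036 and 4093 against 6607 CPM. Rbpj, the Notch effector, stood at 4342 against 6938, 1947 against 4169 and 4937 against 6665. Mrc1, a gene of the class pair, went the other way, at 4342 against 2713, 3012 against 2366 and 4369 against 3298. A 15-gene list of recruited macrophages stood at 1316 against 2346 in Sham, 3144 against 2682 with TAC and 2615 against 3326 with TAC+ART. A single barcode held 88 of the 239 UMIs with TAC, and without it the sum was 2196 CPM, below that of the others. In single barcodes, 0 of 1, 4 of 9 and 3 of 10 lay above the median of the others. The TAC class also held 1 of the barcodes with T or NK markers, and without such barcodes the resident list stood at 10425 against 13589 CPM and the recruited list at 3410 against 2684. A 12-gene interferon list held 2, 14 and 12 UMIs in these barcodes, at 263, 184 and 195 CPM against 311, 234 and 273.

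**Figure D5:**
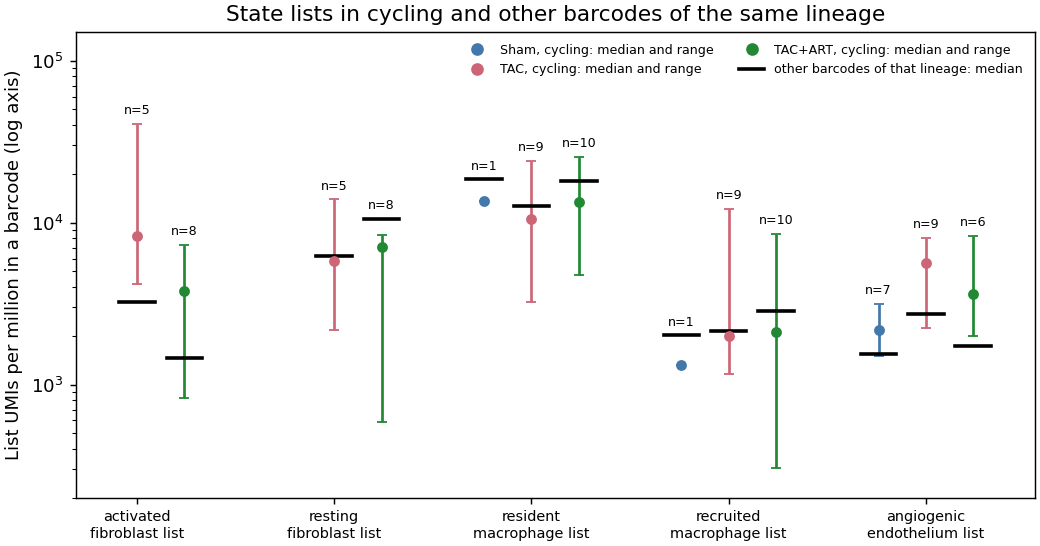
CPM of 5 state lists in single barcodes (vertical axis, log scale): points are medians of cycling barcodes, bars run from the lowest to the highest barcode, n is their number, and black lines are medians of the other barcodes of that lineage. Endothelial cycling medians lie above the black line in all 3 libraries and resident macrophage medians below it; the fibroblast columns hold only pair sums of 10 or more, with no Sham barcode.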

How the data were processed

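For each of 3 10x Genomics libraries the deposited values are raw counts of UMIs by gene and barcode, not normalized by the authors. Cell Ranger, Seurat and the build mm10 are named in the submitters' processing notes, while the sources used here give no versions, no gene annotation and no word on whole cells or nuclei. The matrices hold 29994 gene symbols. Library totals were 17710689 UMIs (Sham), 37658150 (TAC) and 33364667 (TAC+ART), and depth limits the precision of shares and sums as their intervals show. Groups were taken from the sample labels. The members and lists were chosen with earlier results of these data known.

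No barcode was filtered out. Doublets were scored with Scrublet (scanpy 1.11.5, 2 simulated doublets per barcode, 30 components, seed 1). The top 0.8% per 1000 barcodes were marked, kept, and left out in an alternative. Ratios are log2 of summed UMIs over the expected sum with 0.5 counts added to both. The ratio script was tested on simulated data. Named genes were the 6 threshold genes, the 8 lineage genes, 8 fixed cycle genes, up to 4 of each list (the 2 highest and 2 lowest medians), and outside the lists the 10 with the highest lowest ratio and the 5 with the lowest highest ratio. Longer-list classes needed 5 UMIs. Genes named for markers of other types or within-class states were chosen after their values were seen. Older histone symbols were matched to newer ones through RefSeq synonyms in an alternative. Promoters are the first entry per gene. Tables were handled with Python 3.11.15, pandas 2.3.3, numpy 2.4.6 and scipy 1.17.1, and plots with matplotlib 3.10.9. Alternatives (threshold, depth, doublets, lineage rule, weights, pseudocount, minimum) are in the closing section.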

Additional observations from a re-analysis of the deposited data

How the results depend on the processing

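No paired analysis was possible because each group is 1 library. The settings with at least 10 UMIs of the 6 genes, a lineage pair of 10 UMIs, the mitosis list as a second requirement, and the removal of shared, cardiomyocyte-rich, T or NK or single barcodes were chosen after seeing the data. With at least 6 UMIs of the 6 genes the Sham share was 0.213%, and with at least 10 it was 0.107% (Sham), 0.310% (TAC) and 0.452% (TAC+ART). Asking also for 10 mitosis list UMIs gave 0.240% for Sham, and at least 3 UMIs gave 0.933% for TAC+ART. Shares stood in the order Sham, TAC, TAC+ART under 10 of 11 settings, the exception being a limit of 8000 UMIs per barcode, where TAC lay below Sham. At sums of 10 or more the 4 Sham barcodes were 75% endothelial, 0% macrophage, 0% mural and 0% none, the macrophage and mural shares that were cycling were 0% there, and 0.212% of endothelial TAC barcodes were cycling. At sums of 6 or more, macrophages were 0% of the cycling Sham barcodes, and 0% of Sham macrophages were cycling. Longer lists left 0% of the Sham cycling barcodes macrophage (0% of macrophages cycling) and 0% with no class for Sham and 0% for TAC. A lineage pair of 2 UMIs left 0% with no class in Sham and 0% in TAC, and a pair of 6 left 18.4% (TAC) and 23.9% (TAC+ART). A pair of 10 left 56.2% (Sham), 39.5% (TAC) and 37.0% (TAC+ART) with no class, 15.8% (TAC) and 17.4% (TAC+ART) as fibroblast and 0% (TAC) and 10.9% (TAC+ART) as mixed.

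Among genes with at least 20 UMIs, 15 of 6537 were lower as reported, against 54 of 6537 with unweighted other barcodes. The count was 28 of 5404 at sums of 6 or more, 36 of 4531 at 10 or more and 131 of 17793 with no minimum. Of the 271 higher genes, 257 were also higher unweighted and 265 without cardiomyocyte-rich barcodes, where 310 were called. Of the 15 lower genes, 13 were also lower unweighted and 12 without cardiomyocyte-rich barcodes. Among those still tested, 6 of 9 stayed lower at sums of 6 or more and 6 of 8 at 10 or more. With at most 8000 UMIs 3 of 9 did, and in the macrophage class 0 of 2. With 2 counts added, list medians at this minimum were 2.08 (S phase), 3.03 (mitosis), 3.82 (cytokinesis), 2.51 (chromatin) and 2.05 (chromatin with newer symbols), against 2.97, 4.28, 4.90, 3.03 and 2.56. At most 8000 UMIs gave 3.90 (cytokinesis), 2.57 (chromatin) and 0.59 (inhibitors). The inhibitor median of 0.38 was 0.54 unweighted, 0.72 at sums of 6, 0.50 at 10 and 0.59 without cardiomyocyte-rich barcodes. In the macrophage class alone, with 1 Sham barcode, 51 of 1834 genes were higher and 2 were lower. The medians there were 2.08 (S phase), 2.72 (mitosis), 3.34 (cytokinesis), 1.07 (regulators), 0.62 (inhibitors), 1.5 (chromatin) and 1.59 (newer symbols), and Rmi2 reversed to -0.093. All other list medians, counts and shares kept within their spread, interval or 1.5 times, 293 of 348 values in all. Of 684 ratios of single genes under these settings, 122 moved by more than the SD over the 3 libraries, 41 of them in the macrophage class alone and 22 with 2 counts added, where all 22 lay nearer to 0. The cause of these moves was not tested. Members with 4 to 9 UMIs of the 6 genes and classes with 1 to 3 cycling barcodes are limited by depth.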
